A study of Mus musculus with 6 samples.

Results

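The genes described here are those of small nucleolar RNAs (snoRNAs), of the related small Cajal body RNAs (scaRNAs), and of the non-coding genes that carry snoRNAs in their introns. They were taken by symbol, as every symbol that begins with Snord or Snora and a number, with Scarna or with Snhg, plus Gas5. This gave 137 of the 23282 lines in each library, or 135 symbols, since Snord53 and Snord58b are each listed more than once. There were 121 lines of snoRNA and scaRNA genes (76 Snord, 36 Snora and 9 Scarna) and 16 host genes (15 Snhg genes and Gas5).

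The RNA came from CD4 T cells of C57BL/6 mice, isolated from spleen and lymph nodes, with 3 WT and 3 AMPK KO samples. All mice carried floxed Prkaa1 (Prkaa1 fl/fl), the gene of the AMPK α1 subunit. WT mice lacked the CD4Cre transgene, and AMPK KO mice carried it. The deletion could thus take place in every lineage that had expressed CD4Cre and not only in CD4 T cells, which was not tested. The study's methods give female mice 6 to 8 weeks old. Cells of both groups were rested for 1 h and then stimulated with anti-CD3 and anti-CD28 at 2 µg/mL, for 24 h by the labels and for 6 h by the methods of the study. The comparison addressed here is how these RNAs differed between AMPK-deficient and WT T cells, and whether the snoRNA genes and their hosts moved together. The labels do not say that the samples came from separate animals, so p-values measure the spread between these samples.

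Box C/D snoRNAs (Snord genes) guide the methylation of ribose in ribosomal RNA, and box H/ACA snoRNAs (Snora genes) guide the change of uridine to pseudouridine. Most are cut out of the introns of host genes after splicing, and each is held in a particle with a fixed set of core proteins. Several hosts make ribosomal or translation proteins, while Gas5 and the Snhg genes are spliced, mostly non-coding, and known for rapid decay of their spliced RNA in growing cells. A mature snoRNA has no poly(A) tail, whereas the QuantSeq kit used here primes at poly(A), so each value below is a number of reads assigned to a snoRNA locus and not a measure of mature snoRNA.

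Depth ranged from 9575096 to 10168121 gene reads per library in WT and from 10515155 to 11185360 in AMPK KO. Rn45s, the ribosomal RNA precursor, took 22.4% ± 2.21 of the reads in WT and 9.89% ± 1.24 in AMPK KO (SD, n = 3 each). Prkaa1 itself, at 188 to 369 reads, overlapped between the groups, with a log2 fold change of -0.43 (limma, adjusted p = 0.357), and a 3′ read may lie outside the deleted part. Among the markers of other cells, the 4 myeloid genes (Csf1r, Lyz2, Cd68 and Adgre1) summed to 197 to 247 CPM in WT and 335 to 624 CPM in AMPK KO, none was at 0 in any library, and Csf1r and Cd68 rose. The platelet genes Pf4 and Ppbp summed to 4.3 to 6.51 CPM in WT and 13.1 to 17.9 CPM in AMPK KO, and Pf4 rose by 1.62 (SE 0.39, limma, adjusted p = 0.0268). The largest such sum was that of the erythroid genes Hbb-bs, Hba-a1 and Alas2, at 3466 to 4069 CPM in WT and 2465 to 4929 CPM in AMPK KO. It overlapped between the groups, as did the sums of the B cell and NK cell genes. The CD8 T cell genes Cd8a and Cd8b1 summed to 231 to 305 CPM in WT and 321 to 376 CPM in AMPK KO without overlap, with fold changes of 0.34 and 0.38 that did not pass (limma, adjusted p = 0.217 and 0.197), and Cd4 had -0.36 (adjusted p = 0.224). The T cell genes Cd3e and Cd3g fell and Thy1 rose. The part of the precursor RNA and of other cell types in the results below was not tested, and in bulk RNA fewer cells of a type and less RNA per cell cannot be told apart.

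Of the 137 lines, 122 had a read in at least 1 library (106 snoRNA or scaRNA genes and all 16 hosts) and 54 had reads in all 6. The other 15 lines, all snoRNA genes, had 0 reads, which in the shallowest library allows up to 3 reads, or 0.313 CPM. A mean log2 value of at least 1 over the 6 samples was reached by 59 lines, namely 31 Snord, 13 Snora and 3 Scarna genes and 12 hosts. No untested member had more than 49 reads in a library. Of the 47 snoRNA and scaRNA genes tested, 6 reached this mean through AMPK KO alone and 5 through WT alone, with the other group below 1. These 11 genes had to differ to be tested, so the counts and medians over the tested snoRNA genes are descriptions and support no direction. The 4 snoRNA genes and 12 hosts described at length below reached it in both groups.

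The sequences shown first are those of the 4 snoRNA genes that fell in AMPK KO, followed by Snord2, which lies in the same host as Snora81, and by Snord49a and Snord65, which lie in the same host as Snord49b. The sequences are GENCODE M21 transcripts (GRCm38), from which the letters TGATGA of box C, the letters CTGA of box D, and the ACA of Snora genes are set in capitals where a search on the transcribed strand found them near the ends (box C in the first 30 bases, box D in the last 20, ACA in the last 10).
Snord89: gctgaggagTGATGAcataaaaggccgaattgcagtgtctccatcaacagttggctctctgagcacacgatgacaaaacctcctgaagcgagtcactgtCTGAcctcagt
Snora81: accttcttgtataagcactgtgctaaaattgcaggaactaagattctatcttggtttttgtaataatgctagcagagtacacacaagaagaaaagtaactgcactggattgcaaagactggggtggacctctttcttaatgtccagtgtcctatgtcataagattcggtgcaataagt
Snord49b: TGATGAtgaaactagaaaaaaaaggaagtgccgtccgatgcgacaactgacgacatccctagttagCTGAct
Snora30: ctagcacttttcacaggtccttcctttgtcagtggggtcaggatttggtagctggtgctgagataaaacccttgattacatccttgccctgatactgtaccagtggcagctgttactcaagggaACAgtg
Snord2: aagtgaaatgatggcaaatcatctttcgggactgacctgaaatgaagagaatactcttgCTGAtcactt
Snord49a: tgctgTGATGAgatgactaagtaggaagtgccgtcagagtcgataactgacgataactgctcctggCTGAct
Snord65: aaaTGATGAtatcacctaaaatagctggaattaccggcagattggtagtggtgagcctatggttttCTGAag

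Snord89 lies at chr1:39548745-39548854 on the minus strand, Snora81 at chr16:23110756-23110933 on the plus strand, Snord49b at chr11:62603079-62603150 on the plus strand and Snora30 at chr7:127527874-127528003 on the plus strand. Snord2 is at chr16:23108953-23109021, Snord49a at chr11:62603450-62603521 and Snord65 at chr11:62604515-62604586, all on the plus strand. Among the 72 Snord symbols with a single GENCODE transcript, 47 held the box C letters and 70 the box D letters in these windows, against 1.02% and 9.24% of all 141672 transcripts of at least 50 bases. ACA was found in 32 of 34 Snora transcripts, against 14.4% of all transcripts. In Snora81, whose listed transcript runs to 178 bases, ACA was not in the last 10 bases. The 4 snoRNAs that fell ranged from 72 to 178 bases, within the range of the other 43 tested (64 to 414 bases). Snord49b held a run of 8 A, the longest among the tested snoRNAs, of which the others reached at most 6. Snord49a and Snord49b share at most 13 bases in a row.

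In AMPK KO, 4 of the 47 tested snoRNA and scaRNA genes passed the threshold, and all 4 were lower than in WT. Of all 11279 genes tested, 5.65% passed (2.54% higher and 3.1% lower), and the share among the snoRNA genes was 8.51%. Under scaling to reads outside Rn45s, 32.5% of all genes past the threshold were higher, against 45.1% in the values reported here. The median log2 fold change of the 47 was -0.12, against 0.02 over all genes, and 25 of the 47 had a lower mean in AMPK KO.

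The box C/D snoRNA Snord89 showed the largest fold change of any tested member on the log2(CPM + 1) scale, whereas with limma voom Snora7a (-4.33), Snora33 (4.10) and Snord99 (3.61), all with libraries at 0 reads and none past the threshold there, had larger ones. Log2 values of 8.09, 7.81 and 8.42 were found in WT, against 5.49, 4.88 and 4.43 in AMPK KO, from 2238 to 3025 and 244 to 519 reads. Every AMPK KO sample lay more than 2 log2 units below every WT sample. The log2 fold change was -3.18 (SE 0.24, n = 3 per group, limma, adjusted p = 1.8e-06), a 9.05-fold lower value on the scale of log2(CPM + 1).
RefSeq lists no gene around Snord89. GENCODE places it in an intron of Gm15832 on the same strand, a name that RefSeq gives as a synonym of the neighbouring Rnf149, a ubiquitin ligase gene. Rnf149 had log2 values of 6.96, 6.98 and 6.86 in WT and 7.08, 7.199 and 7.25 in AMPK KO. These groups did not overlap, and the fold change of 0.25 (SE 0.14) did not pass the threshold (limma, adjusted p = 0.342).

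Snora81, a box H/ACA snoRNA within the translation factor gene Eif4a2, had log2 values of 8.27, 8.33 and 9.05 in WT and 6.95, 6.93 and 6.15 in AMPK KO, from 2830 to 4687 reads and 830 to 1451 reads. The groups did not overlap, with the WT sample of replicate 3 highest and the AMPK KO sample of replicate 3 lowest. Its log2 fold change was -1.88 (SE 0.23, limma, adjusted p = 0.000395), or 3.67-fold lower. Eif4a2, which encodes an RNA helicase of translation initiation, had a log2 fold change of 0.37 (SE 0.15, limma, adjusted p = 0.157), and its own values did not overlap between the groups in the other direction. The difference between snoRNA and host within a sample was 1.16, 1.02 and 1.97 in WT and -0.56, -0.47 and -1.56 in AMPK KO. This exact two-sided permutation test gave p = 0.1, the smallest that 3 against 3 samples allow. Snord2, a box C/D snoRNA of the same host, had values of 2.47, 2.96 and 3.26 in WT and 2.94, 4.29 and 2.31 in AMPK KO, with a fold change of 0.28 (SE 0.45, limma, adjusted p = 0.771), and its groups overlapped. Both snoRNAs lie in annotated exons of Eif4a2 transcripts, so reads there could be counted for either gene, and whether the counting used the strand is not given in the sources used here.

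Snord49b and Snora30 fell by less. Snord49b, a box C/D snoRNA, had log2 values of 4.58, 4.47 and 4.53 in WT and 3.15, 3.54 and 2.78 in AMPK KO, from 195 to 211 reads and 70 to 114 reads. Its log2 fold change was -1.37 (SE 0.29, limma, adjusted p = 0.0132). Snora30, a box H/ACA snoRNA in an intron of the chromatin remodeller gene Srcap, had values of 5.55, 5.32 and 5.86 in WT and 4.21, 4.94 and 3.46 in AMPK KO, with a log2 fold change of -1.37 (SE 0.31, limma, adjusted p = 0.0199). In both, all AMPK KO samples lay below all WT samples, and for Snora30 replicate 2 of AMPK KO came nearest to WT. The non-coding host of Snord49b, 2410006H16Rik, rose by 0.56 (SE 0.15, limma, adjusted p = 0.0439) and passed in 7 of the 14 alternatives, while Srcap had a fold change of -0.68 (SE 0.32, limma, adjusted p = 0.244). Snord49a and Snord65, in the same host as Snord49b, had fold changes of 0.36 and 0.09 at 0 to 31 and 5 to 80 reads, and in both the groups overlapped.
Snord89 and Snora81 passed the threshold under all 14 alternatives of processing, Snord49b under 10 and Snora30 under 9. The last 2 were lost without replicate 1 or 3 of WT or replicate 1 of AMPK KO, where 2 snoRNA genes remained.

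**Figure D1:**
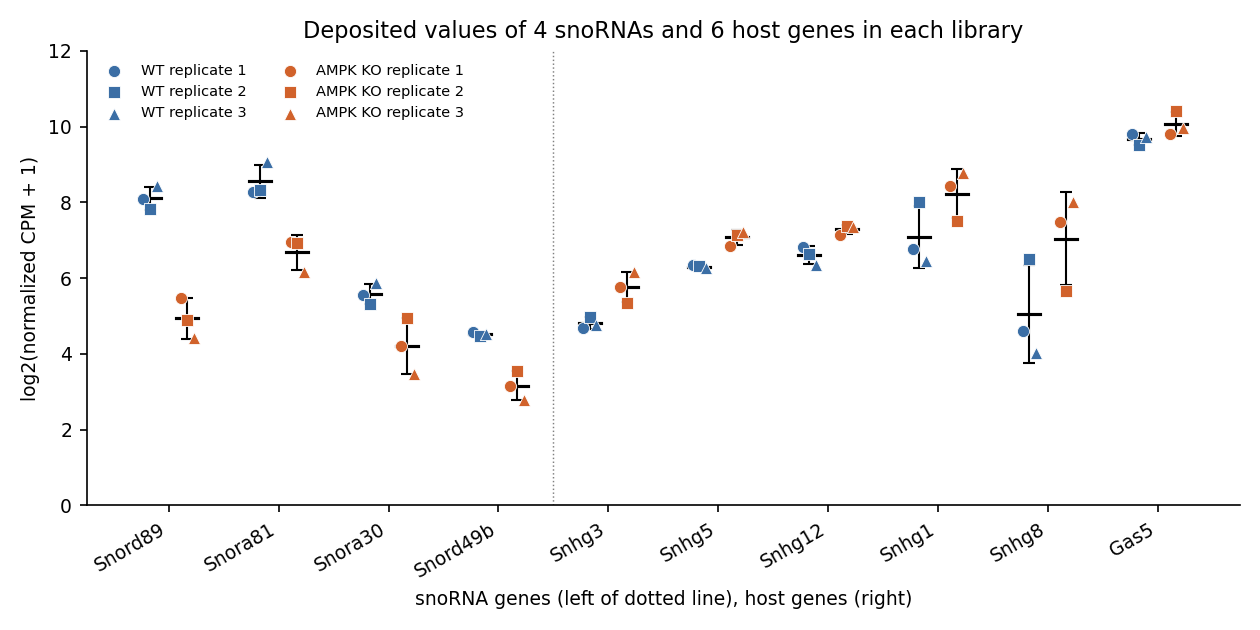
Deposited log2(normalized CPM + 1) values (y axis) of 4 snoRNA genes and 6 host genes (x axis) in each library, with replicates 1, 2 and 3 as circles, squares and triangles, group means as lines and SDs as bars (n = 3). The 4 snoRNA genes lie lower in every AMPK KO sample than in every WT sample, whereas Snhg1 and Snhg8 overlap because replicate 2 of WT is high and replicate 2 of AMPK KO is low.

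Counted as RPM over the reads outside Rn45s, the precursor left out of the total, the snoRNA and scaRNA loci together took 1053, 1018 and 1544 in WT and 497, 539 and 344 in AMPK KO, with means of 1205 ± 294 and 459.7 ± 102 (SD, n = 3 each). Snord89 and Snora81 made up 67.5% ± 1.7 of these reads in WT and 34.2% ± 5.39 in AMPK KO. The other 119 lines took 352, 342 and 472 in WT and 296, 372 and 237 in AMPK KO, where the groups overlapped. The difference in the summed snoRNA reads lay for the most part in these 2 genes. The 16 host genes together had higher values, with 1627, 1693 and 1502 in WT and 2197, 2273 and 2565 in AMPK KO, and all AMPK KO samples lay above all WT samples. Without Gas5, which did not pass the threshold, the other 15 hosts took 541, 796 and 465 in WT and 1113, 748 and 1387 in AMPK KO, and these groups overlapped at replicate 2.

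**Figure D2:**
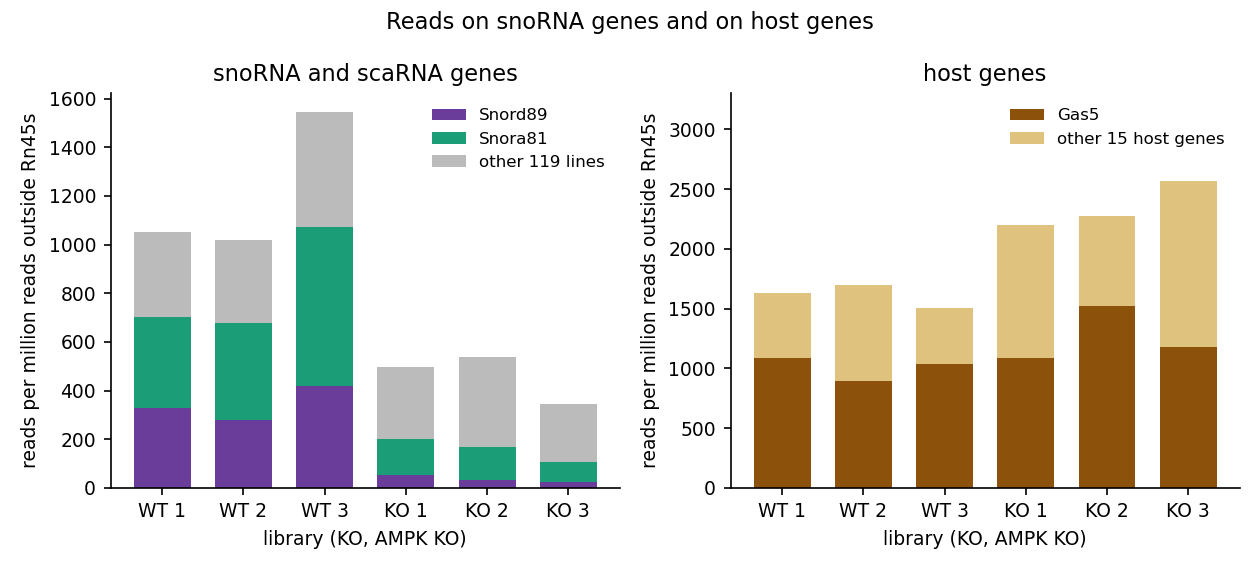
RPM, taken over the reads outside Rn45s (y axis), in each library (x axis), on snoRNA and scaRNA genes at left and on host genes at right, stacked by gene. Snord89 and Snora81 shrink in the AMPK KO libraries while the remaining snoRNA reads stay between 237 and 472 in all 6 libraries.

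No snoRNA gene passed the threshold in the upward direction, in limma or in limma voom on recovered reads, and 5 of the 47 were higher at an unadjusted p below 0.05, the same share as the 10.6% over all genes. With single libraries left out, Snora33 passed upward without replicate 2 of AMPK KO and Snora78 without replicate 2 of WT, but both are among the genes tested through AMPK KO alone. WT and AMPK KO were separated without overlap for 15 of the 47 snoRNA and scaRNA genes (11 lower and 4 higher), a share of 31.9% against 25.6% over all tested genes. Beside the 4 genes above, 6 of these had a log2 fold change of at least 1 in size, at low read numbers. Snora7a (23, 26 and 33 reads in WT and 0, 18 and 0 in AMPK KO), Snord73a (42, 42 and 25 against 19, 15 and 0) and Snora75 (33, 59 and 57 against 22, 29 and 17) had lower values. Snora7a and Snord73a were tested through WT alone, and Snora75 did not pass (-1.07, SE 0.40, limma, adjusted p = 0.135). They lie in Rpl32, Rps3a1 and Ncl, genes of ribosomal proteins and of nucleolin, and Snora7a and Snora75 are within annotated exons there. Snord99 (0, 2 and 6 reads in WT and 34, 19 and 39 in AMPK KO), Snord47 (4, 7 and 6 against 48, 19 and 21) and Snord38a (5, 9 and 2 against 35, 32 and 15) had higher values, and these 3 were tested through AMPK KO alone, so that their separation follows in part from the filter. Snord99 and Snord47 lie in annotated exons of Snhg12 and Gas5, so their reads cannot be told apart from reads of those hosts.

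By class, the 31 Snord genes had a median log2 fold change of 0.07 with 2 past the threshold, both lower, and the 13 Snora genes had a median of -0.45 with 2 past the threshold, both lower. The 3 Scarna genes, which guide modification of spliceosomal RNAs in Cajal bodies, ranged from -0.92 to 0.01, and none passed in limma or had an unadjusted p below 0.05. Scarna17 (WT 223 to 501 reads, AMPK KO 259 to 399) had a fold change of -0.28 (SE 0.29, limma, adjusted p = 0.633). Of the snoRNA genes with over 90 reads in every library, Snord104 and Snord55 did not pass either, Snord104 at 0.46 (SE 0.21, limma, adjusted p = 0.228) and Snord55 at -0.47 (SE 0.33, limma, adjusted p = 0.443). Snord104 was higher in all AMPK KO samples (393 to 456 reads) than in all WT samples (220 to 290 reads), whereas Snord55 overlapped. Of the 47, 23 lie within an annotated exon of another gene, and their median fold change of -0.10 was near that of the other 24, at -0.26.

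The calls among the host genes were in the other direction. Of 12 tested, 3 passed the threshold, all higher in AMPK KO, against 2.54% of all genes, and 10 had a higher mean, with a median log2 fold change of 0.44. Snhg5, a spliced host of box C/D snoRNAs, had log2 values of 6.33, 6.31 and 6.26 in WT and 6.86, 7.14 and 7.22 in AMPK KO, and rose by 0.77 (SE 0.16, limma, adjusted p = 0.0105). Snhg3, a host of box H/ACA snoRNAs, had values of 4.68, 4.98 and 4.76 in WT and 5.77, 5.35 and 6.17 in AMPK KO, and rose by 0.96 (SE 0.22, limma, adjusted p = 0.0245). Snhg12 had values of 6.83, 6.64 and 6.35 in WT and 7.15, 7.37 and 7.33 in AMPK KO, and rose by 0.68 (SE 0.16, limma, adjusted p = 0.0266). In all 3 the groups did not overlap, and the rises came to 1.71-fold, 1.94-fold and 1.60-fold. Snhg5 is at chr9:88521052-88522897, Snhg3 at chr4:132351933-132353686 and Snhg12 at chr4:132308678-132311024 (RefSeq, GRCm38.p6), with Snhg12 on the plus strand and the other 2 on the minus strand.

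Snhg1 and Snhg8 had the larger fold changes and the larger spread. Snhg1 had 999, 2580 and 765 reads in WT and 4036, 1941 and 5169 in AMPK KO, with a fold change of 1.15 (SE 0.34, limma, adjusted p = 0.0625). Snhg8, named after its values were seen, had 215, 895 and 136 reads in WT and 2090, 527 and 3035 in AMPK KO, with a fold change of 1.99 (SE 0.56, limma, adjusted p = 0.0514). In both genes replicate 2 of WT lay above replicate 2 of AMPK KO, and the other samples were separated by group. Without replicate 2 of WT the adjusted p was 0.0055 for Snhg1 and 0.006 for Snhg8, and without replicate 2 of AMPK KO it was 0.00282 and 0.000834 (limma). Gas5, the host with the most reads, had log2 values of 9.81, 9.50 and 9.72 in WT and 9.81, 10.42 and 9.96 in AMPK KO, with a fold change of 0.38 (SE 0.17, limma, adjusted p = 0.203). Its lowest AMPK KO value and its highest WT value were 0.001 apart before rounding, and without replicate 2 of AMPK KO its fold change was 0.21. Of the remaining 6 hosts, Snhg4 (0.50), Snhg6 (0.32), Snhg7 (0.27), Snhg9 (0.02), Snhg20 (-0.04) and Snhg17 (-0.26) had overlapping groups.
The 3 host calls rested on single libraries in part. No host passed without replicate 1 or without replicate 3 of WT, only Snhg5 passed without replicate 1 or 3 of AMPK KO, and 5 passed without replicate 2 of either group.

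**Figure D3:**
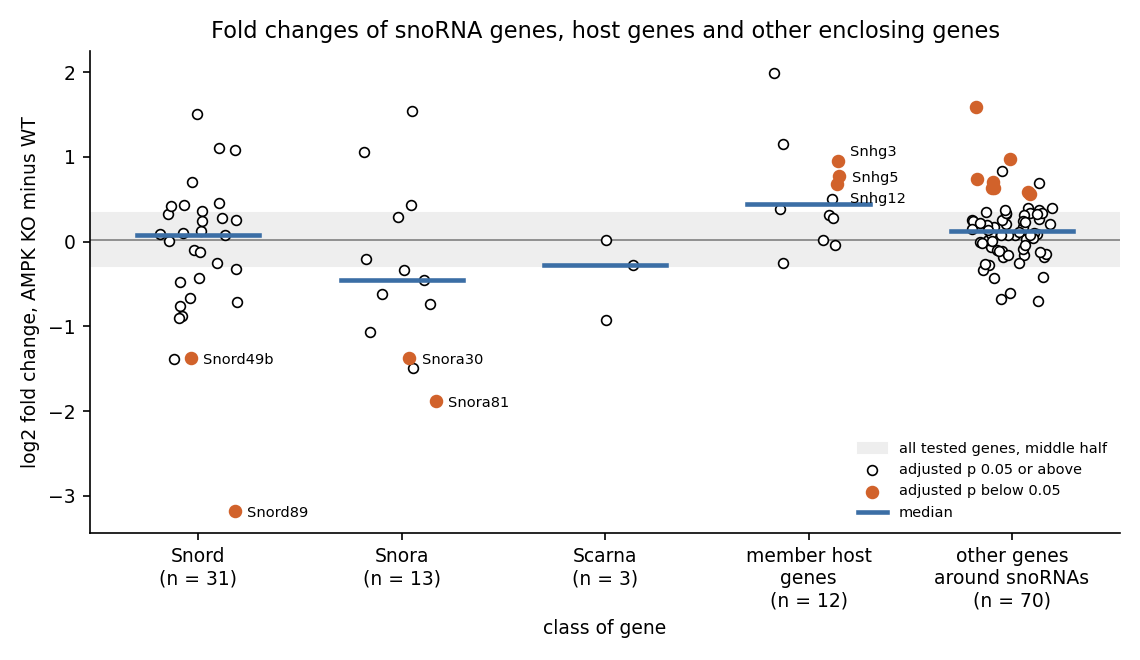
Log2 fold change of AMPK KO over WT (y axis) for each tested gene by class (x axis), other enclosing genes included, with medians as lines and the interquartile range of all tested genes as a band. The member host genes centre at 0.44 with 3 genes past the threshold, the Snora genes centre at -0.45, and the genes past the threshold among snoRNAs are lower.

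The start sites of hosts are shown because genes of the translation machinery, and several snoRNA hosts, are known to begin with a C and a run of pyrimidines. The search was for a C at the first transcribed base followed by at least 4 bases that are each C or T, on the transcribed strand of RefSeq starts (GRCm38). Each line gives 10 bases before and 20 from the start, with the pyrimidine run that begins with C in capitals.
Gas5 outer start: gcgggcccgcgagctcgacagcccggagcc
Gas5 inner start: ccatctcagcCTTTCggagctgtgcggcat
Snhg8: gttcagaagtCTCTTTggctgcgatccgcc
Snhg1: tcttgtcggcCTCatttttccttgttcggg
Snhg12: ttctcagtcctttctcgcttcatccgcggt
Snhg5: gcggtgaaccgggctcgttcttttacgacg
Snhg3: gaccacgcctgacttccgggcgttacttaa

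These windows are chr1:161034591-161034620 and chr1:161035156-161035185 for the outer and inner of the 2 listed Gas5 starts, chr3:123508317-123508346 for Snhg8, chr19:8723477-8723506 for Snhg1, chr4:132308668-132308697 for Snhg12, chr9:88522878-88522907 for Snhg5 and chr4:132353667-132353696 for Snhg3. Of the 14 member hosts in the table, which list 16 starts, 3 had such a start at a listed site (Gas5 at its inner start only, Snhg7 and Snhg8), against 3.01% of all 27025 genes. In Snhg1 the run held 3 pyrimidines. For Snhg3, Snhg5 and Snhg12, no match says only that the listed first base was not a C followed by such a run.

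SnoRNA genes were then set against the genes that enclose them on the same strand. RefSeq gave an enclosing gene for 114 lines, in 82 genes, and in 42 pairs both members were tested. In 31 of the 42 pairs the snoRNA had the lower log2 fold change, in 11 the higher, and in 19 pairs the signs were opposite. The median difference, snoRNA minus enclosing gene, was -0.47. Within samples, the difference between snoRNA and enclosing gene did not overlap between the groups in 12 of the 42 pairs, lower in AMPK KO in 10 and higher in 2. Over all 11279 tested genes, the values of 25.6% did not overlap, and the share was not taken for pairs of other genes. Many snoRNAs in these pairs had few reads and share a host, so the 42 pairs are not independent. All 5 genes tested through WT alone were among the 31, and all 6 tested through AMPK KO alone among the 11. The direction of those pairs follows in part from the filter, so the counts and the median difference are descriptions.

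Beside Snora81 and Snord49b, the widest gaps on the log2(CPM + 1) scale were in 3 pairs. They were Snora7a in Rpl32 (-1.49 against 0.39), Snord73a in Rps3a1 (-1.38 against 0.23) and Snord45c in Rabggtb (-0.90 against 0.71). In these 3 the within-sample differences did not overlap. Snora7a and Snord73a were tested through WT alone, so that their gaps follow in part from the filter. Snord45c had overlapping groups of its own (7 to 69 reads). It lies in an annotated exon of Rabggtb, so its reads may not be told apart from those of the host. The size and order of such gaps depend on the offset for genes with libraries at 0, since with limma voom Snora7a had -4.33 and Snord73a -3.10, both then beyond Snora81. Snord22 in Snhg1 had -0.10 against 1.15. In the other direction stood Snora78 in Snhg9 (1.05 against 0.02) and Snora33 in Rps12 (1.55 against 0.59). Both were tested through AMPK KO alone and had overlapping within-sample differences. Within Snhg12, Snord99, also tested through AMPK KO alone, had 1.503, and Snora61 had 0.29 with overlapping groups. Snora16a, in the same host and too low to be tested, had 8, 22 and 26 reads in WT and 3, 0 and 10 in AMPK KO, with a mean log2 difference of -1.12 and no overlap.

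**Figure D4:**
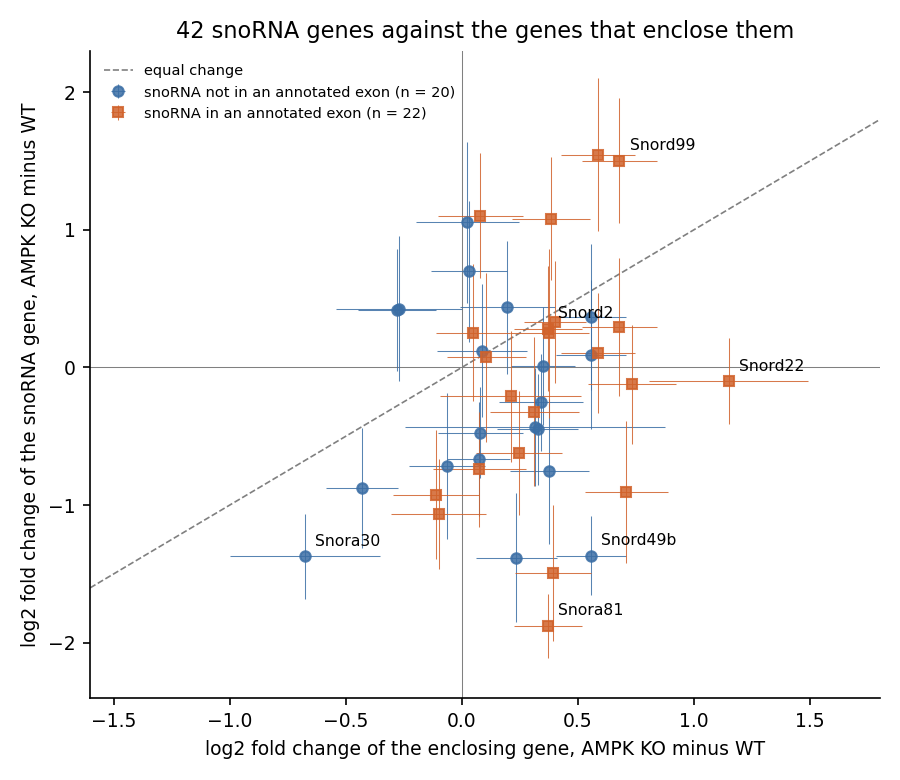
Log2 fold change of each snoRNA gene (y axis) against that of its enclosing gene (x axis) for 42 pairs, with standard errors as bars, the dashed line marking equal change. In 31 pairs the point lies under the dashed line, with Snora81 and Snord49b far below it at positive host values.

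Among the enclosing genes not listed under a Snhg symbol or as Gas5, 70 were tested, with a median log2 fold change of 0.12. A higher mean in AMPK KO was found for 47 of the 70, against 51.2% of all genes. The 70 include 1810032O08Rik, the listed symbol of Snhg16. Of the 70, 8 rose and 0 fell at the threshold (limma), against 2.54% higher over all genes. An unadjusted p below 0.05 was found for 20, against 21.3% of all genes. The genes that rose were Hspa8, a heat shock chaperone that holds several box C/D snoRNAs (1.59, SE 0.14, limma, adjusted p = 2.02e-05), the ribosomal protein genes Rpl4 (0.73), Rps12 (0.59) and Rpl39 (0.63), Rabggtb (0.71), and the non-coding 1110038B12Rik (0.97), 1500012F01Rik (0.63) and 2410006H16Rik (0.56). Reads on Hspa8 numbered 2591 to 3848 in WT, far from the 11178 to 11703 of AMPK KO. Hspa8 passed under all 14 alternatives and 1500012F01Rik under 11, whereas 1110038B12Rik passed under 8, Rabggtb and 2410006H16Rik under 7, and Rpl4, Rps12 and Rpl39 under 6. The count of 8 became 3 when scaled to reads outside Rn45s, 2 without a filter, 1 without replicate 1 or 3 of WT, 2 without replicate 1 of AMPK KO and 4 without replicate 3 of AMPK KO. Without replicate 2 of AMPK KO, 10 were higher and 1 lower, and with a replicate block 1 was higher.

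The proteins of the snoRNA particles did not pass the threshold with all 6 samples. Of the box C/D core proteins, Fbl (the methyltransferase) had a fold change of 0.02, Nop56 0.40, Nop58 0.35 and Nhp2l1 -0.05. Nop56 (7.92, 7.76 and 7.82 in WT and 8.17, 8.32 and 8.21 in AMPK KO) and Nop58 (8.29, 8.37 and 8.11 against 8.62, 8.48 and 8.71) did not overlap between the groups, with adjusted p of 0.0928 and 0.155 in limma. Of the box H/ACA core proteins, Dkc1 (the pseudouridine synthase) had 0.18, Gar1 1.02, Nhp2 -0.03 and Nop10 -0.00. Gar1, at 96, 271 and 69 reads in WT and 467, 114 and 591 in AMPK KO, had the same order of samples as Snhg1, with replicate 2 of WT above replicate 2 of AMPK KO. Without replicate 2 of AMPK KO, Gar1 (1.68, adjusted p = 0.00719) and Nop58 (0.41, adjusted p = 0.0387) passed in limma.

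The wider lists held assembly and localization factors (14 tested, median -0.07), intron release and trimming (7, median -0.17), nonsense-mediated decay (10, median -0.28), which degrades spliced Snhg RNAs, and the proteins bound by the U3 snoRNA (10, median -0.10). Together with the core proteins, 49 genes were tested and 0 passed in limma or in limma voom, with 10 at an unadjusted p below 0.05, against 21.3% over all genes. Of these 10, Nop56 and Nop58 had the higher mean in AMPK KO and the others the lower. The lowest adjusted p was that of Smg1, the kinase of nonsense-mediated decay, at -0.54 (SE 0.15, limma, adjusted p = 0.0523), whose values were lower in all AMPK KO samples than in all WT samples. Smg1 passed when scaled to reads outside Rn45s (adjusted p = 0.0382 in limma), with the stricter filter, with a robust spread and without replicate 3 of AMPK KO. Coil, the scaffold protein of Cajal bodies, also had groups apart, at -0.75 (SE 0.27, limma, adjusted p = 0.119).

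Other structured RNAs served for comparison with the snoRNAs. Of 6 tested, 0 passed in limma, 1 had an unadjusted p below 0.05, and 1, Rn45s, passed in limma voom. Rn45s had 2085772, 2103834 and 2380805 reads in WT and 1189642, 891441 and 1160200 in AMPK KO, with a log2 fold change of -1.33 (SE 0.40, limma, adjusted p = 0.0642), and its groups did not overlap. The minor spliceosomal RNAs Rnu11 (0.07) and Rnu12 (-0.36), the vault RNA Vaultrc5 (-0.15), and the RNAs of RNase P and RNase MRP, Rpph1 (-0.01) and Rmrp (-0.37), all had overlapping groups. Rnu11 (WT 968 to 1055 reads, AMPK KO 1059 to 1653) was read about as often as Snora81 in AMPK KO.

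**Figure D5:**
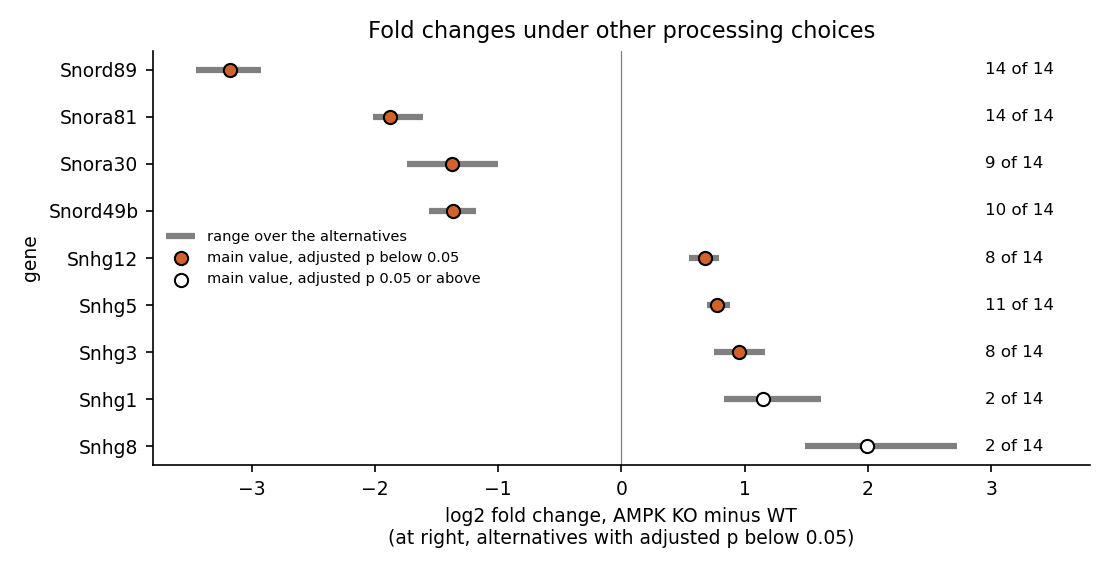
Log2 fold change (x axis) of 9 member genes (y axis), with the reported value as a point and the range over the alternatives of processing as a bar, and the number of alternatives in which the gene passed the threshold at right. Snord89 and Snora81 passed in all 14 alternatives, and Snhg1 and Snhg8 in 2 of 14.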

How the data were processed

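RNA of 6 samples (3 WT, 3 AMPK KO) was sequenced from QuantSeq 3′ libraries made from 500 ng of total RNA. The authors deposited log2 values, log2 of TMM-normalized CPM plus 1, by gene symbol. The submitters' processing notes name Bowtie2, bedtools and mm10, without versions. Whole reads were recovered from the steps of the values: 100% of values up to 100 reads lay within 0.1 of a whole read. No deposited column was left out.

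The members, lists, named-gene rule and tests were chosen with earlier results of these data known. Genes with a mean log2 of at least 1 (11279) were tested with lmFit and eBayes (trend) of limma 3.58.1 in R 4.3.3, two-sided, Benjamini-Hochberg, threshold 0.05, all 6 samples, genotype only. On simulated data the fit recovered all genes changed 4-fold, which were drawn only from genes with a mean log2 of at least 3. Recovery at the lower level of many members was not simulated. Single differences used exact permutation tests. Enclosing genes came from RefSeq (GRCm38.p6), with strand from its start table or else from GENCODE M21, since the RefSeq gene table gives none. Box C was searched in GENCODE transcripts, since the start table held 0 Snord members. Fold changes are on the log2(CPM + 1) scale and understate changes of low genes. Depth limits precision for members with few reads, and reads without molecular identifiers are not independent molecules. How the counting treated reads that fit several loci or overlapping genes, such as a snoRNA and its host or close copies, is not given in the sources used here. Sequences on 1 chromosome were not printed. An enclosing gene is not reported here.

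Named genes were all members past the threshold, members with groups apart and a fold change of at least 1 in size, the 4 members of each class with the highest mean, pairs in which either gene passed, the core proteins, Rn45s and Prkaa1. A few others, chosen after their values were seen, are given as examples. The alternatives were quantile normalization, scaling to reads outside Rn45s, no filter, a filter of at least 3, a pseudocount of 0.1, limma voom on recovered reads, a robust spread, a replicate block, and each library left out. Other steps ran in Python 3.11.15 (scipy 1.17.1, pandas 2.3.3, numpy 2.4.6), with figures by matplotlib 3.10.9.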

Additional observations from a re-analysis of the deposited data

How the results depend on the processing

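The number of genes past the threshold, 637, was 308 without a filter and 127 to 1246 with single libraries left out. The 4 snoRNA genes became 2 to 6 with single libraries left out, and the 3 hosts became 1 without a filter and 0 to 5 with single libraries left out. The median of the hosts was 0.37 to 0.68, that of the snoRNA genes -0.38 to 0.05 and their difference -1.07 to -0.32 with single libraries left out, the snoRNA median lying above 0 without AMPK KO replicate 3. Of the 49 pathway genes, 1 passed when scaled to reads outside Rn45s, 1 with the stricter filter and 1 with a robust spread, and 0 to 4 with single libraries left out. Of the other structured RNAs, 1 passed under the Rn45s scaling, a pseudocount of 0.1, limma voom and a robust spread, and 0 to 1 with single libraries left out. Neither scaling moved the median of all genes by over 0.1.

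The replicate numbers do not pair the samples (correlations of deviations -0.08, -0.32 and -0.16 for same-numbered samples). With a replicate block, 102 genes, 2 snoRNA genes and 0 hosts passed.

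Genes near 0 changed sign. Under quantile normalization Nop10 was 0.0689, Scarna2 -0.10, Snord100 -0.00489 and Snord65 -0.0358. Scaled outside Rn45s, Fbl was -0.0510, Scarna2 -0.0418 and Snhg9 -0.0446. Snord65 was -0.0893 with a pseudocount of 0.1 and -0.0565 with limma voom. With single libraries left out, ranges spanned 0 for Scarna2 (-0.24 to 0.20), Snord49a (-0.17 to 0.78), Snord65 (-0.44 to 0.76), Nhp2 (-0.39 to 0.24), Nop10 (-0.20 to 0.14), Snord100 (-0.11 to 0.32), Snord16a (-0.50 to 0.19), Scarna17 (-0.58 to 0.0683), Snora61 (-0.15 to 0.74), Snord2 (-0.28 to 0.72), Snord22 (-0.24 to 0.01), Snhg6 (-0.21 to 0.96), Snhg9 (-0.15 to 0.11), Snhg20 (-0.19 to 0.13), Nhp2l1 (-0.22 to 0.0445) and Fbl (-0.0713 to 0.10). None of these passed the threshold. The cause of these changes was not tested.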
